A study of Mus musculus with 8 samples.

Results

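Imprinted genes are transcribed mainly from the copy inherited from 1 parent, and their signal was followed here across the RNA interference groups of a pre-iPSC array study. The rule that picks the members uses no measured value, but their list was chosen with earlier results of these data known. It holds 57 mouse imprinted genes. Of these, 51 had at least 1 probe set that the array's annotation gives to that gene alone, out of 18193 genes measured in this way. Each gene is represented by its probe set with the highest mean over the 8 arrays, and the other probe sets served as a check. The 51 genes lie in 21 imprinted clusters or single loci, all of which kept at least 1 measured gene. Slc22a3, Dio3, Zrsr1, Peg13 and Kcnk9 had no named probe set, and H19 had only a probe set that it shares with Mir675, the microRNA gene inside it; H19 is therefore described apart.

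Pre-iPSCs are cells that started reprogramming towards induced pluripotent stem cells and stopped short of it. The cells were kept in embryonic stem cell medium, exposed to siRNA over 3 days and then lysed for total RNA. The control group (n = 3 arrays) received siRNA against luciferase, which has no target in mouse cells. The 3XHMT group (n = 2) received siRNA against Ehmt1, Ehmt2 and Setdb1 together. These genes encode some of the enzymes that place methyl groups on lysine 9 of histone H3. The Cbx3 group (n = 3) received siRNA against Cbx3, which encodes HP1 gamma, a protein that binds this mark. The labels give no strain, clone, parental cross or starting cell for the pre-iPSCs, and no age or genotype. Arrays of a group are labelled as biological replicates, but no label says which step was done anew for each, so p-values measure only the spread between these arrays. An array signal sums both parental copies and all cells of a dish. It cannot tell 1 active copy from 2, nor more expressing cells from more RNA per cell.

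As background, an imprinted cluster is controlled by a stretch of DNA, the imprinting control region, that carries DNA methylation on only 1 parental copy. The methylated copy binds ZFP57 and ZFP445, zinc finger proteins that bring in TRIM28, SETDB1 and DNA methyltransferases, and it carries histone H3 lysine 9 trimethylation. At the Kcnq1 and Igf2r clusters a long noncoding RNA made from the paternal copy silences genes on that copy, and in placenta EHMT2 takes part in silencing the genes farther out. In the Igf2-H19 cluster, Igf2 is made from the paternal and H19 from the maternal copy, with CTCF acting as an insulator between them. The members include growth factors and growth brakes (Igf2, Igf2r, Cdkn1c, Grb10), retroelement-derived genes (Peg10), neuronal genes (Ndn, Ube3a, Ppp1r9a) and noncoding RNAs (Kcnq1ot1, Meg3).

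The 4 members called in the comparisons below without a block are shown by the 250 bases before a RefSeq transcription start (GRCm38.p6), per gene the window with the most CpG dinucleotides, so that the reader can see which kinds of promoter are involved. Capitals mark TGCCGC, the core motif bound by ZFP57, on either strand (TGCCGC or GCGGCA). Each window is written 5' to 3' on the strand of the gene.
Igf2, chr7:142658805-142659054, minus strand: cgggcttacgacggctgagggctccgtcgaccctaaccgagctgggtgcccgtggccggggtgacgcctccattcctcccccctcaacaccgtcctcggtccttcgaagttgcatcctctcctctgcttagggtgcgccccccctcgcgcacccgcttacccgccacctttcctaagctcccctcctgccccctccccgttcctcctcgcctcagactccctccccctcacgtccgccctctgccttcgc
Tspan32, chr7:143004796-143005045, plus strand: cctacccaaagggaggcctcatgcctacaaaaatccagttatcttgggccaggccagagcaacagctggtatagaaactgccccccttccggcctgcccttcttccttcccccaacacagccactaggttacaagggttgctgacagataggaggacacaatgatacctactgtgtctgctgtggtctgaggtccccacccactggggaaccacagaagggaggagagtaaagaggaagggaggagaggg
Osbpl5, chr7:143740361-143740610, minus strand: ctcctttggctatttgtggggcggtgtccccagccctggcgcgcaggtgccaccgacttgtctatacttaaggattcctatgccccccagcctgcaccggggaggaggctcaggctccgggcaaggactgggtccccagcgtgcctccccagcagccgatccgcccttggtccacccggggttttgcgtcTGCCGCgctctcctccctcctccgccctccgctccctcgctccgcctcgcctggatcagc
Ppp1r9a, chr6:4903061-4903310, plus strand: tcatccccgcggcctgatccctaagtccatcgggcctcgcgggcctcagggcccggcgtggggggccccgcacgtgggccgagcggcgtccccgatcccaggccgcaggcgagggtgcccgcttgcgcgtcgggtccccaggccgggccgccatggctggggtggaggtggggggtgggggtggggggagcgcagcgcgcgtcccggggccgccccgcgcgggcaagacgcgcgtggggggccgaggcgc

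The Igf2 window holds 22 CpG, that of Osbpl5 18 and that of Ppp1r9a 35, while the single Tspan32 window holds 1. The other windows of Igf2 hold 1, 6 and 10, those of Osbpl5 1 and 14, and that of Ppp1r9a 8. The median was 6 CpG over all 32851 promoters in the table and 10 over the 64 promoters of measured members. The windows shown were picked for the most CpG, so their counts cannot be set against these medians. The motif was present in 1 of these 4 windows, that of Osbpl5, where it begins 60 bases before the start. It was present in 10 of the 64 promoters of measured members (15.6%), which belong to 9 genes (Calcr, Copg2, Meg3, Mest, Nap1l5, Osbpl5, Plagl1, Slc22a2 and Zim1), and in 8.68% of all promoters. A table entry existed for 41 of the 51 measured members. These letters describe promoters and not the imprinting control regions, which were not analysed here.

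The arrays also differed in a way that cuts across the siRNA groups. The middle 18S ribosomal RNA control probe set falls into 3 tiers: control 2, 3XHMT 1 and Cbx3 2 are high (12.6 to 12.8 on the log2 scale), control 1 and Cbx3 1 are in the middle (11.2 and 11.5), and control 3, 3XHMT 2 and Cbx3 3 are low (9.98 to 10.2). Each result is therefore given from the fit without this tier and, where the call differs, with the tier as a block. The tiers were cut at the widest gaps of this probe set, and the 5' 18S probe set kept their order. In the 3' 18S probe set the high arrays stood apart. There control 1 and Cbx3 1 (10.3 and 10.6) were not above the low arrays as a group (10.6 to 11.1). The siRNA targets were lower in their groups. The brightest Cbx3 probe set, which also matches the pseudogene Cbx3-ps5, was at 42.8% of control (adjusted p = 0.0453 over all probe sets). Setdb1 was lower in 3XHMT by 0.66 on the log2 scale (adjusted p = 0.339; 0.0295 with the block), Ehmt2 by 0.58 (1.00; 0.196) and Ehmt1 by 0.33 (1.00; 0.131). Of 13 pluripotency markers 10 lay above the median probe set signal of 5.89. Their mean level was 7.99 to 8.63 in control, 8.88 to 9.21 in 3XHMT and 8.47 to 8.86 in Cbx3, with 12 of 13 higher than control in 3XHMT and 9 of 13 in Cbx3. Among them Pou5f1 had signals of 12.6 to 13.2 on all arrays, and Nanog had 5.13 ± 0.27 (SD, n = 3) in control, below that median. Nanog was higher in both siRNA groups, at 7.94 ± 0.31 (SD, n = 2) in 3XHMT (adjusted p = 0.0434) and 8.44 ± 0.76 (SD, n = 3) in Cbx3 (adjusted p = 0.0151). Zfp42 was also called higher in 3XHMT (adjusted p = 0.0452), and no other marker of this list was called against control without the block. With the block Dppa5a was called higher in 3XHMT as well, and no marker was added in Cbx3. Of 11 measured fibroblast markers 9 lay below that median. Their mean level was 5.65 to 5.80 in control, 5.59 to 5.70 in 3XHMT and 5.84 to 5.89 in Cbx3. Of 8 endoderm markers 7 lay below it, at mean levels of 5.35 to 5.58, 5.36 to 5.60 and 5.38 to 5.59. Of 7 trophoblast markers 3 (Elf5, Krt7 and Tpbpa) lay below it and 4 (Cdx2, Eomes, Hand1 and Tfap2c) above, at mean levels of 5.62 to 6.12, 5.74 to 5.89 and 5.97 to 6.17. The mean levels of the fibroblast and trophoblast lists were higher in all 3 Cbx3 arrays than in both 3XHMT arrays. With the tier as a block, Col3a1, Postn and Twist1 of the fibroblast list and Tfap2c of the trophoblast list were called lower in 3XHMT than in Cbx3. Of the pluripotency list, Dppa5a and Zfp42 were called higher in 3XHMT than in Cbx3 with the block, and Zfp42 also without it. The part of these markers in the results below was not tested.

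The mean signal of the imprinted genes over the 8 arrays ranged from 4.18 for Zim1, a zinc finger gene, to 13.4 for Peg3, a paternally expressed zinc finger gene of the same cluster. It lay above the median probe set in 35 of 51 members (68.6%), near the 63.4% of all genes, was over 10 in 10 members and under 5 in 7. Signals of different probe sets depend on their probes and are not compared here as amounts of RNA. Members with signals over 10 were Peg3, Cd81 (a tetraspanin, 13.1), Gnas (the G protein alpha subunit, 12.4), Grb10 (an adaptor that dampens insulin signalling, 11.4), Ddc (11.3), Ube3a (a ubiquitin ligase, 10.8), Commd1 (10.8), H13 (10.4), Impact (10.4) and Nap1l4 (10.3). By limma 0 of these 10 bright genes were called in any of the 3 comparisons, with or without the tier as a block. At an unadjusted p under 0.05 there were 0 of the 10 without the block. With it there were 2 for 3XHMT and 2 for Cbx3 against control and 4 between these groups, where 12.6%, 19.3% and 22.0% of all genes had such a p. For Peg3 the group means were 13.43 ± 0.06 (SD, n = 3) in control, 13.33 ± 0.12 (SD, n = 2) in 3XHMT and 13.43 ± 0.10 (SD, n = 3) in Cbx3. For Cd81 they were 13.11 ± 0.12, 13.08 ± 0.11 and 13.04 ± 0.07.

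With siRNA against the 3 methyltransferases, 1 of 51 imprinted genes was called lower and none higher, at a limma adjusted p under 0.05. The gene is Ppp1r9a, maternally expressed in the Peg10-Sgce cluster of chromosome 6, which encodes neurabin, an actin-binding scaffold for protein phosphatase. Over all 18193 genes, 0.231% were called in this comparison. Of the members, 24 were higher and 27 lower than control, with a median difference of -0.014 on the log2 scale (all genes 0.0067, 51.7% higher). At an unadjusted p under 0.05 there were 4 members (7.84%), 1 higher and 3 lower, against 5.27% of all genes. This count was 8 (15.7%) with the tier as a block, 1 higher and 7 lower, against 12.6% of all genes.

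Ppp1r9a signals were 8.41, 8.67 and 8.40 in control, 7.44 and 7.53 in 3XHMT, and 8.43, 8.35 and 8.59 in Cbx3. Both 3XHMT arrays lay below all 6 others. The difference was -1.01 ± 0.14 (SE) on the log2 scale, a 2.01-fold fall (limma adjusted p = 0.0424, or 0.00873 once the tier is blocked). Within the tiers it was -1.23 in the high and -0.87 in the low tier. The 4 other probe sets of the gene, with mean signals of 7.76, 6.67, 5.42 and 4.33, differed by -0.82, -0.36, 0.01 and -0.67, so 3 of them were also lower. Leaving out any 1 of the 8 arrays took the adjusted p out of the threshold, to between 0.0545 and 0.311, with differences of -1.06 to -0.92. With the tier as a block the call was lost in 2 of the 8 omissions, those of control 2 and 3XHMT 1 (adjusted p up to 0.0664).

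The arrays of the 3XHMT and control groups did not overlap in 9 members (17.6%), against 16.4% of all genes, a share close to the background. Tspan32, Osbpl5, Sgce, Ppp1r9a and Grb10 were lower, and Phlda2, Nap1l4, Zim1 and Dcn higher. Once the tier was a block, 3 members were called, against 1.76% of all genes: Ppp1r9a and Sgce lower, Dcn higher. Sgce, paternally expressed next to Peg10, encodes epsilon-sarcoglycan, a membrane protein in which mutations cause a movement disorder. Its signals were 7.77, 8.32 and 7.81 in control and 7.69 and 7.23 in 3XHMT, so the highest 3XHMT array lay just under the lowest control. The difference of -0.51 ± 0.22 (SE) had an adjusted p of 0.961, and 0.0462 with the block. It was called in 0 of the 8 fits with the block that leave out 1 array (adjusted p 0.0524 to 0.286).

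Dcn encodes decorin, a collagen-binding proteoglycan, and is imprinted in placenta. It had 5.997, 6.20 and 6.51 in control, 7.56 and 6.94 in 3XHMT, and 6.05, 6.27 and 6.18 in Cbx3. Both 3XHMT arrays stood above the other 6, 1.36 over control in the high tier and 0.43 in the low tier. The difference was 1.02 ± 0.21 (SE), 2.02-fold (adjusted p = 0.189; 0.0470 with the block, kept in 1 of 8 omissions, that of 3XHMT 2, and otherwise up to 0.283). The gene's other probe set, with a mean signal of 4.06, differed by -0.05. Decorin is also made by fibroblasts. By limma 0 of the 11 fibroblast markers were called between 3XHMT and control in either fit. In each fit 2, Postn and Twist1, had an unadjusted p under 0.05. Of all genes 5.27% had such a p without the block and 12.6% with it. The part of these markers in the Dcn result was not tested.

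With siRNA against Cbx3, 2 of 51 imprinted genes were called higher and none lower, against 0.445% of all genes called: Igf2 and Tspan32, which lie in neighbouring clusters of chromosome 7. Members were higher in 28 and lower in 23 cases, with a median of 0.024 on the log2 scale (all genes 0.012, 53.0% higher). At an unadjusted p under 0.05 there were 8 (15.7%), 7 higher and 1 lower, against 9.56% of all genes. This count was 20 (39.2%) with the tier as a block, 11 higher and 9 lower, against 19.3% of all genes. With the tier as a block 7 members were called, against 6.59% of all genes: Igf2, Tspan32, Phlda2, Sgce, Peg10 and Asb4 higher, and Ndn lower.

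Igf2 encodes insulin-like growth factor 2, a fetal growth factor made from the paternal copy. Its signals were 6.69, 7.55 and 7.59 in control, 7.38 and 7.34 in 3XHMT, and 8.74, 8.82 and 8.79 in Cbx3. The 3 Cbx3 arrays lay close together and above all others, while control 1 stood below the other 2 control arrays. The group difference was 1.504 ± 0.22 (SE) on the log2 scale, which is 2.84-fold (limma adjusted p = 0.0368; 0.00131 with the block). Within the tiers it was 2.05, 1.26 and 1.20 in the middle, high and low tier. The second probe set was dim, with a mean of 3.87, and differed by 0.14.

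H19, the maternally expressed noncoding RNA that shares enhancers with Igf2, was seen through the probe set it shares with Mir675. That probe set had 8.20, 10.04 and 10.15 in control, 9.36 and 10.47 in 3XHMT, and 11.42, 11.13 and 11.66 in Cbx3. Its 3 Cbx3 arrays were again above all others, and control 1 again stood apart at the bottom. The difference of 1.94 ± 0.52 (SE), 3.85-fold, was outside the threshold in the fit over all 45037 probe sets (adjusted p = 0.308) and inside it with the tier as a block (0.0202). Within the tiers it was 3.23, 1.09 and 1.52. Both genes of this pair, made from opposite parental copies, were thus higher in every Cbx3 array than in the control array of its tier. Ins2, the insulin gene beside Igf2, differed by 0.09 ± 0.16 (SE).

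Tspan32, which encodes a tetraspanin best known from blood cells, is maternally expressed in the Kcnq1 cluster. It had 8.32, 8.64 and 7.95 in control, 7.63 and 7.51 in 3XHMT, and 9.61, 9.52 and 9.40 in Cbx3. The 3 groups did not overlap, with 3XHMT lowest and Cbx3 highest. The rise in Cbx3 was 1.21 ± 0.17 (SE), 2.31-fold (adjusted p = 0.0325; 0.00134 with the block). The difference of -0.73 ± 0.19 (SE) in 3XHMT was not past the threshold (adjusted p = 0.375; 0.0604 with the block). The second probe set, with a mean of 7.72, differed by only 0.09 in Cbx3 and by -0.28 in 3XHMT.

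The calls of Igf2 and Tspan32 were sensitive to single arrays in the fit without the block: each gene kept its call in 1 of 8 omissions, Igf2 without control 1 and Tspan32 without control 2, with adjusted p of up to 0.165 and 0.145 otherwise. Both kept it in all 8 omissions with the block. Adjusted over all 45037 probe sets, of which 0.0777% were called, neither passed (adjusted p = 0.0762 and 0.0686), and both did with the block (0.00243 each).

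The other 5 members were called only with the block. Peg10, a paternally expressed gene derived from a retroelement and needed for the placenta, had 5.07, 7.38 and 5.70 in control, 6.56 and 5.81 in 3XHMT, and 7.42, 8.31 and 6.72 in Cbx3. Its arrays differed widely within each group, the high-tier array being the highest of each, and each Cbx3 array was 0.93 to 2.35 over the control array of its tier. The difference was 1.43 ± 0.60 (SE; adjusted p = 0.494, and 0.0175 with the block). Sgce had 8.50, 8.79 and 8.33 in Cbx3, all above the control arrays given above, by 0.57 ± 0.20 (SE; adjusted p = 0.368, and 0.0102 with the block).

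Asb4, a maternally expressed gene of the same cluster whose protein brings substrates to a ubiquitin ligase, was near the bottom of the scale. It had 3.96, 4.50 and 4.203 in control, 5.25 and 4.34 in 3XHMT, and 5.03, 6.25 and 5.38 in Cbx3. All 3 Cbx3 arrays exceeded all control arrays, by 1.33 ± 0.34 (SE; adjusted p = 0.173, and 0.00140 with the block), and the other probe set, with a mean of 3.63, differed by 1.12. In Cbx3 with the block, 3 of the 5 measured Peg10-Sgce genes were called higher, against 6.59% of all genes called in either direction. Of the remaining 2, Ppp1r9a differed by -0.04 ± 0.12 (SE) and Calcr, the calcitonin receptor gene, by -0.59 ± 0.31 (SE).

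Phlda2, a maternally expressed brake on placental growth in the Kcnq1 cluster, had 4.92, 5.54 and 5.56 in control, 5.65 and 5.66 in 3XHMT, and 5.23, 5.92 and 6.22 in Cbx3. Control and Cbx3 arrays overlapped. Each Cbx3 array was 0.31 to 0.65 over the control array of its tier (0.45 ± 0.26, SE; adjusted p = 0.726, and 0.0389 with the block). Ndn, the paternally expressed gene of necdin, a growth-restraining protein of neurons, had 8.83, 8.84 and 7.85 in control, 8.81 and 7.43 in 3XHMT, and 8.15, 8.58 and 7.18 in Cbx3. The groups overlapped widely, since the low-tier array was lowest in every group. Within the tiers Cbx3 was lower by -0.68, -0.26 and -0.68 (adjusted p = 0.894, and 0.0269 with the block). The other 4 Ndn probe sets with means between 7.41 and 8.06 differed by -0.66 to -0.40.

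In the fits with the block that leave out 1 array, Asb4 kept its call in 8 of 8. Sgce and Ndn lost it without control 1, control 3, Cbx3 1 or Cbx3 3 (adjusted p up to 0.0836 and 0.169), and Peg10 without control 1, control 3 or Cbx3 1 (up to 0.102). Phlda2 lost it without any control or Cbx3 array (up to 0.205). Counted over all probe sets of the list, 13 of 135 were called with the block, against 3.43% of all probe sets. Of the 7 among them that are not a gene's brightest single-symbol probe set, 3 belong to Ndn, and 1 each to Asb4, H19, Kcnq1ot1 and Meg3. Those of Kcnq1ot1 and Meg3 were dim, with means of 3.37 and 4.68, and the bright probe sets of these noncoding RNAs were not called.

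**Figure D1:**
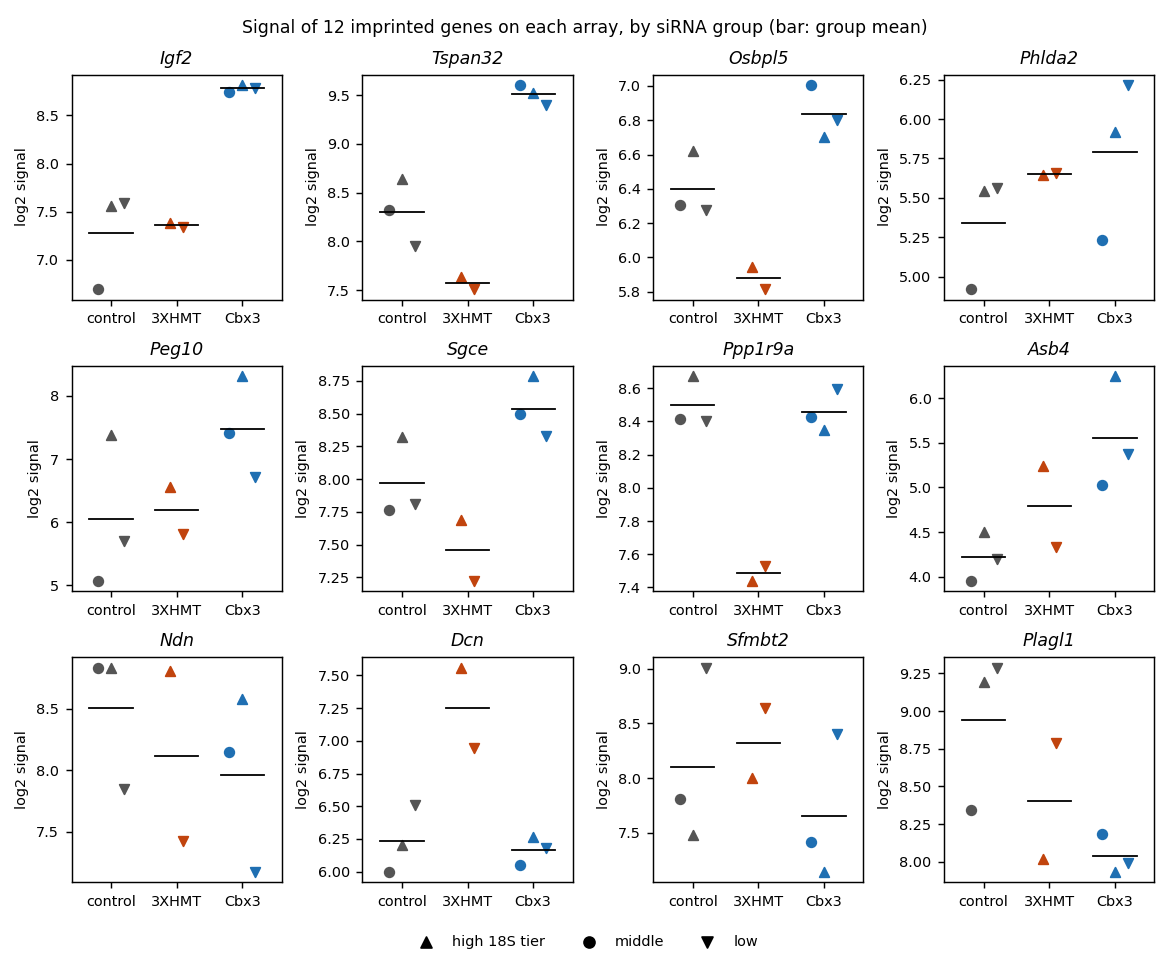
Signal (log2) of 12 imprinted genes on each of the 8 arrays, by siRNA group; markers give the 18S tier and the bar the group mean. Igf2 and Tspan32 are highest on the 3 Cbx3 arrays, Ppp1r9a is lowest and Dcn highest on the 2 3XHMT arrays, and Ndn is lowest on the low-tier array of each group.

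Plagl1, a paternally expressed zinc finger gene that restrains growth, was not past the threshold, and its difference was the most negative of the 51 in Cbx3. It had 8.34, 9.19 and 9.29 in control, 8.02 and 8.79 in 3XHMT, and 8.19, 7.93 and 7.99 in Cbx3. All 3 Cbx3 arrays lay under all control arrays, and the within-tier differences were -0.16, -1.26 and -1.30 in the middle, high and low tier. The difference was -0.91 ± 0.28 (SE; adjusted p = 0.276, and 0.0503 with the block). The gene's other probe sets, with means of 5.19 and 4.44, differed by -0.20 and -0.08. Igf2r, the receptor that clears IGF2 and is maternally expressed, had 8.70, 8.67 and 8.44 in control, 8.77 and 8.41 in 3XHMT, and 8.92, 9.18 and 8.89 in Cbx3. Its Cbx3 arrays lay above all the others, by 0.40 ± 0.14 (SE) over control (adjusted p = 0.388, and 0.0501 with the block), and its other probe set differed by 0.28. In all, the control and Cbx3 arrays did not overlap in 8 members (15.7%), against 14.3% of all genes: Igf2, Tspan32, Osbpl5, Igf2r, Sgce and Asb4 were higher, and Plagl1 and Commd1 lower.

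In the Kcnq1 cluster, which had all 11 listed genes measured, 4 were higher than control in 3XHMT and 7 in Cbx3, with medians of -0.09 and 0.02. In the Snrpn-Ube3a cluster of chromosome 7, all 6 genes were lower in Cbx3, by 0.13 to 0.54 on the log2 scale with a median of -0.37. By limma 0 of the 6 were called without the block, where 0 also had an unadjusted p under 0.05. With the block Ndn was called, and 4 of the 6 had an unadjusted p under 0.05, against 19.3% of all genes. The 6 genes include paternally expressed Snrpn, Magel2, Mkrn3 and Ndn and maternally expressed Ube3a and Atp10a. In 3XHMT, 2 of these 6 were higher, with a median of -0.09. Snrpn itself was read by a probe set of mean 7.21, and its brighter probe sets, at 11.01 to 11.9, are shared with Snurf and differed by -0.23 to -0.09 in Cbx3. In the Dlk1-Dio3 cluster of chromosome 12, the noncoding RNAs Meg3 and Rian were 0.26 and 0.53 over control in Cbx3, while Mirg differed by -0.26. The other Mirg probe set, with a mean of 5.25 beside 5.45, differed by 0.28, so its direction depended on the probe set. The other Rian probe sets differed by -0.17, 0.05 and -0.02, and those of Meg3 by -0.19 to 0.82. Of the 4 measured genes of this cluster 0 were called by limma with or without the block. In Cbx3 against control, 0 had an unadjusted p under 0.05 without the block and 2 with it, against 9.56% and 19.3% of all genes.

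**Figure D2:**
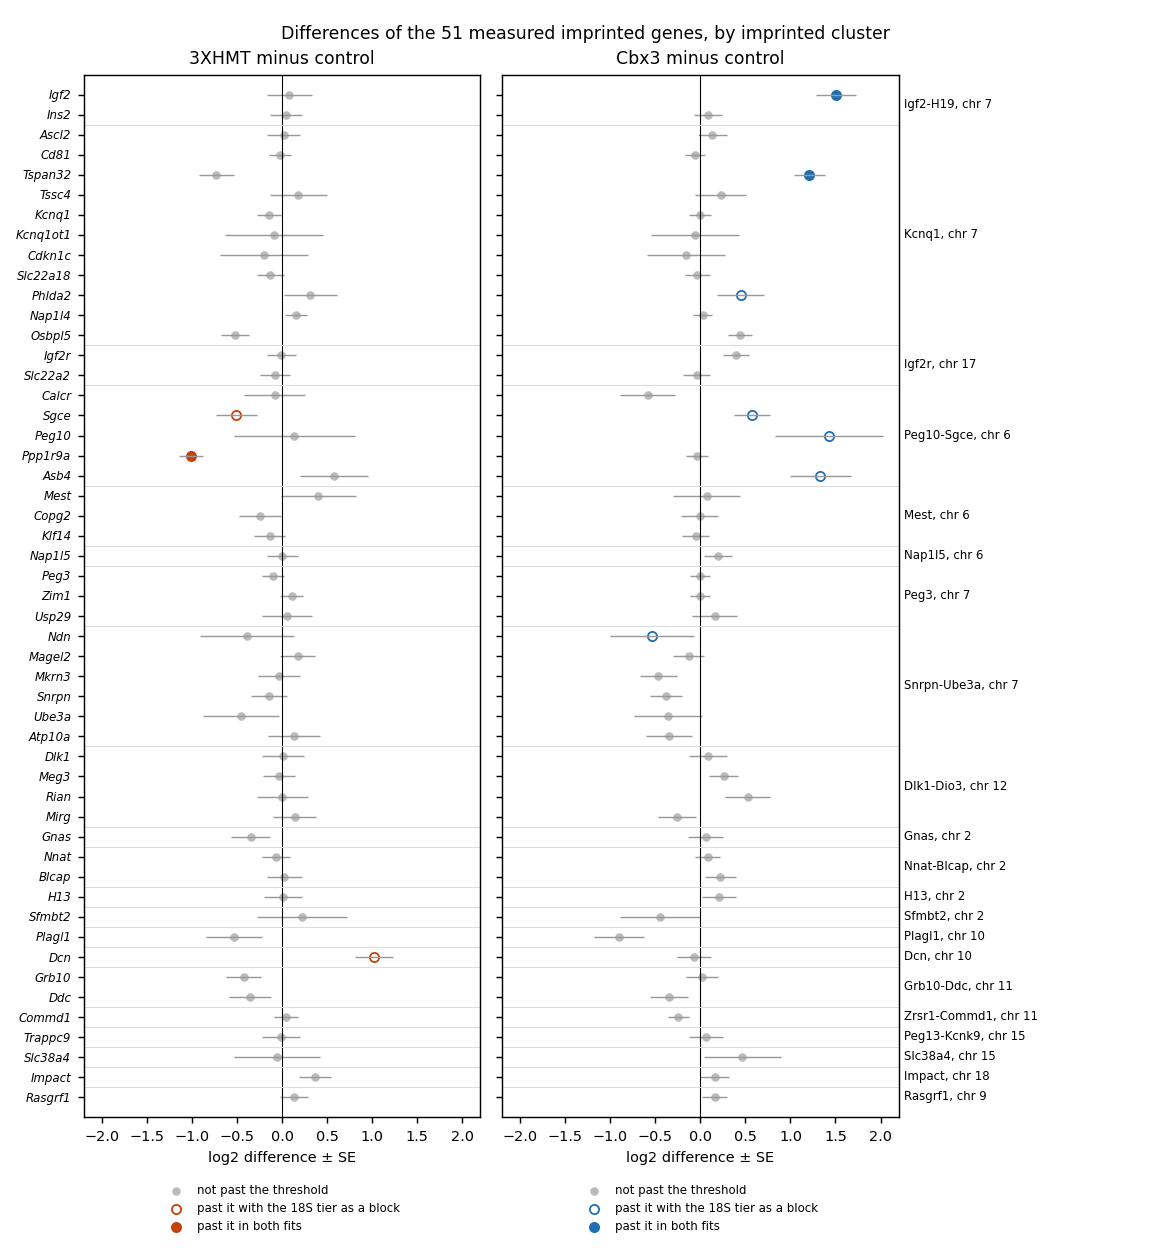
Differences from control (log2, point, with 1 standard error) of the 51 measured imprinted genes, grouped by cluster, for 3XHMT (left) and Cbx3 (right); filled colour marks genes past adjusted p 0.05 in both fits and open circles those past it only with the 18S tier as a block. Ppp1r9a stands at -1.01 on the left, Igf2 at 1.504 and Tspan32 at 1.21 on the right, and the 6 Snrpn-Ube3a genes all lie left of 0 on the right.

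By parental copy, as known from other work and not measured in these cells, the directions were mixed. Of 28 maternally expressed members, 13 were higher in 3XHMT and 14 in Cbx3, with medians of -0.012 and -0.0027. Of 21 paternally expressed members, 11 and 12 were higher, with medians of 0.00069 and 0.079. Gnas and Grb10, which make transcripts from both copies, were left out of this count.

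Between the 3XHMT and Cbx3 groups more members were called than against control. Of 51, 4 were called lower in 3XHMT than in Cbx3 and none higher, against 1.51% of all genes called in either direction: Igf2, Tspan32, Osbpl5 and Ppp1r9a. Members were higher in 3XHMT in 16 cases and lower in 35, with a median of -0.091 (all genes -0.0027, 49.5% higher). An unadjusted p under 0.05 was found in 7 (13.7%), 1 higher and 6 lower, near the 11.4% of all genes. With the tier as a block it was found in 22 (43.1%), 6 higher and 16 lower, against 22.0% of all genes. Tspan32 differed by -1.94 ± 0.19 (SE), 3.83-fold lower (adjusted p = 0.00741), with -1.89 in both tiers that hold the 2 groups. Igf2 was 2.68-fold lower (-1.42 ± 0.25, SE; adjusted p = 0.0350), and Ppp1r9a 1.96-fold lower (-0.97 ± 0.14, SE; adjusted p = 0.0175).

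Osbpl5, an oxysterol-binding protein gene at the maternally expressed far end of the Kcnq1 cluster, had 6.31, 6.62 and 6.28 in control, 5.94 and 5.81 in 3XHMT, and 7.01, 6.70 and 6.80 in Cbx3. The 3 groups did not overlap, with 3XHMT lowest. It was 1.95-fold lower in 3XHMT than in Cbx3 (-0.96 ± 0.15, SE; adjusted p = 0.0251). Against control, it differed by -0.52 ± 0.15 (SE; adjusted p = 0.483) in 3XHMT and by 0.44 ± 0.14 (SE; adjusted p = 0.280) in Cbx3, in neither case past the threshold with the block. Osbpl5, Tspan32 and Sgce of chromosome 6 were the 3 members (5.88%) whose groups stood in the order 3XHMT below control below Cbx3 with no overlap, an order found in 0.709% of all genes. The reverse order was found in 0 members and 0.759% of all genes. Sgce met the order narrowly, its highest 3XHMT array being at 7.69 and its lowest control array at 7.77. The order was counted after it was seen in these members, so these shares do not test it.

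Igf2, Osbpl5 and Ppp1r9a lost this call whenever 1 of the 5 arrays of the 2 groups was left out (adjusted p up to 0.211, 0.174 and 0.118), and Tspan32 lost it without 3XHMT 1 (0.0519) or 3XHMT 2 (0.0563). With the block all 4 kept it in 8 of 8 omissions. Over all probe sets, of which 0.528% were called, 3 of 135 passed, those of Tspan32, Osbpl5 and Ppp1r9a. With the tier as a block, 8 members were called, against 9.12% of all genes: Asb4, Igf2, Osbpl5, Peg10, Ppp1r9a, Sgce and Tspan32 lower, and Dcn higher. In the same fit the fibroblast markers Col3a1, Postn and Twist1 differed by -0.86, -0.53 and -0.85 and the trophoblast marker Tfap2c by -1.38 (adjusted p = 0.0190, 0.0175, 0.0215 and 0.0108), in the direction of the 7 lower members and opposite to Dcn; their part was not tested. The pluripotency markers Dppa5a and Zfp42 were called higher in that fit, in the direction of Dcn, and their part was not tested. Sgce, at -1.08 ± 0.22 (SE), had an adjusted p of 0.0641 without the block and 0.000748 with it. Dcn, at 1.09 ± 0.21 (SE), had 0.0513 and 0.0116. With the block and 1 array left out, Sgce kept its call in 8 of 8. Peg10 lost it without control 3, 3XHMT 1 or Cbx3 2 (adjusted p up to 0.136), Asb4 without 3XHMT 2 or Cbx3 3 (up to 0.0906), and Dcn without 3XHMT 1, Cbx3 2 or Cbx3 3 (up to 0.0768). Sfmbt2, a paternally expressed Polycomb gene, was called higher only with the replicate number as a block (adjusted p = 0.0479; 0.748 without a block). Its signals were 7.81, 7.49 and 9.01 in control, 8.0005 and 8.64 in 3XHMT, and 7.42, 7.14 and 8.40 in Cbx3, highest on the low-tier array in each group.

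Arrays of 3XHMT and Cbx3 did not overlap in 17 members (33.3%), 5 higher and 12 lower, against 26.7% of all genes. With the tier as a block, 11 of the 135 probe sets of the list were called between these groups, against 4.66% of all probe sets, 10 of them lower in 3XHMT. They include a second probe set of Slc38a4, an amino acid transporter gene expressed from the paternal copy, at -1.44 with the block, while its brightest differed by -0.72 (adjusted p = 0.0905). Between 3XHMT and control, 3 of 135 were called with the block, against 0.699%, all 3 of Ppp1r9a. Without the block none was, against 0.0555%, the lowest adjusted p being 0.0811.

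**Figure D3:**
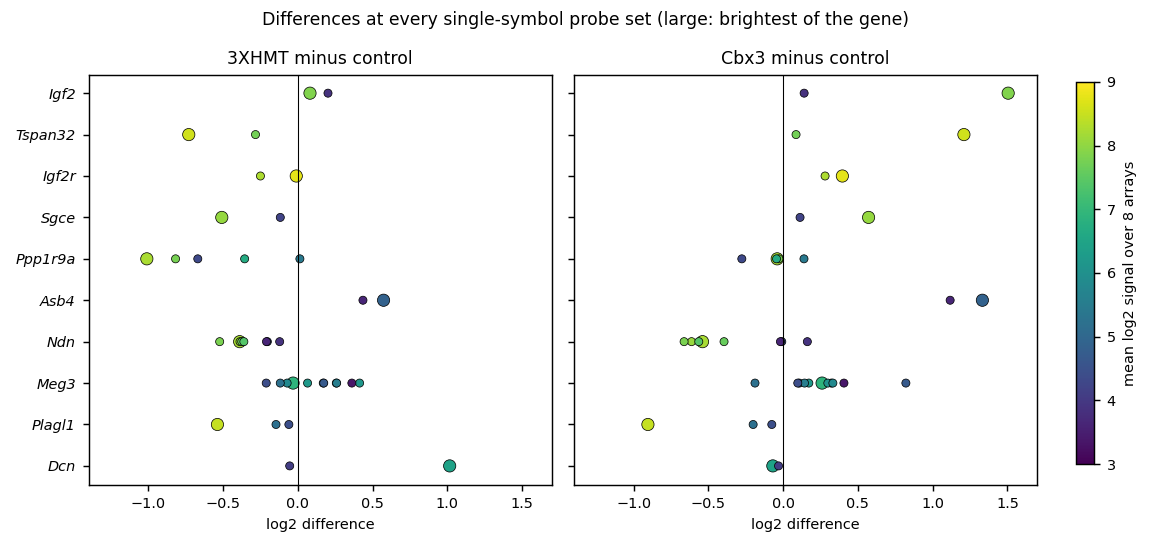
Differences from control (log2) at every single-symbol probe set of 10 imprinted genes, for 3XHMT (left) and Cbx3 (right); colour gives the mean signal and large points the probe set used for the gene. Of 5 Ppp1r9a probe sets 4 lie left of 0 on the left, both Asb4 probe sets lie over 1 on the right, and the second probe sets of Igf2 and Tspan32 lie at 0.14 and 0.09 on the right.

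The 18S tier took a larger share of the variance over the 8 arrays than the siRNA group did in 31 of 51 members (60.8%), against 59.9% of all genes. The median share was 41.5% for the tier and 28.3% for the group (39.8% and 25.3% over all genes). The 2 shares overlap, since the tiers hold unequal numbers of each group. Kcnq1ot1, the paternally expressed RNA of the Kcnq1 cluster, had 95.5% between tiers and 0.4% between groups. Its signals were 8.32, 7.35 and 8.33 in control, 7.26 and 8.56 in 3XHMT, and 8.17, 7.002 and 8.65 in Cbx3, lowest on the high-tier array of every group. Copg2, Mest, Cdkn1c, Tssc4 and Ndn also had over 80% between tiers. At the other end, Tspan32 and Ppp1r9a had 94.8% and 94.7% between groups, Osbpl5 89.7% and Igf2 88.6%.

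**Figure D4:**
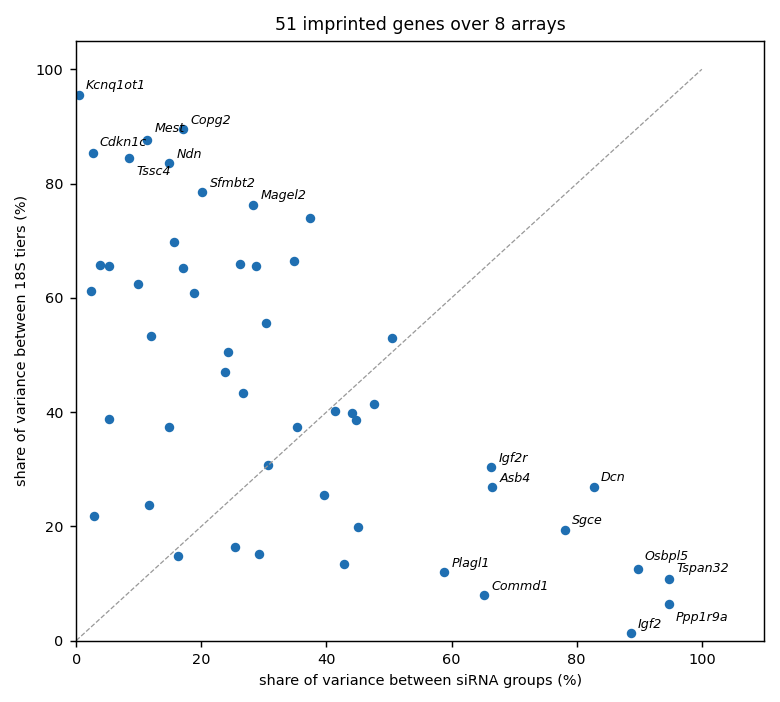
Share of each gene's variance over the 8 arrays that lies between siRNA groups (horizontal, percent) and between 18S tiers (vertical, percent), for the 51 measured imprinted genes; the dashed line marks equal shares. Kcnq1ot1 sits at 95.5% between tiers, and Tspan32, Ppp1r9a, Osbpl5 and Igf2 sit at 88.6% to 94.8% between groups.

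Genes known to set or keep imprints were described from a list of 32, of which 29 were measured. In the limma fit without the block 0 were called in each of the 3 comparisons. For 3XHMT and Cbx3 against control and for 3XHMT against Cbx3, 2, 0 and 3 of the 29 had an unadjusted p under 0.05. Of all genes 5.27%, 9.56% and 11.4% had such a p. With the block, Setdb1, a target of the 3XHMT siRNA, was called lower in 3XHMT than in both other groups. Ehmt2, another target, was called lower in 3XHMT than in Cbx3, and none was called between Cbx3 and control. In that list Cbx3 stands by its dim single-symbol probe set. In 3XHMT 16 of 29 were higher than control and in Cbx3 13 of 29, with medians of 0.018 and -0.051. The zinc finger gene Zfp57 had 8.91 ± 0.10 (SD, n = 3) in control, 8.86 ± 0.12 (SD, n = 2) in 3XHMT and 8.75 ± 0.20 (SD, n = 3) in Cbx3, and its partner Trim28 had 12.72 ± 0.18, 12.86 ± 0.03 and 12.82 ± 0.13. The maintenance DNA methyltransferase Dnmt1 had 11.57 ± 0.17, 11.61 ± 0.11 and 11.41 ± 0.04. The group means of Zfp57, Trim28 and Dnmt1 differ by about the spread between arrays. With the block 6, 4 and 6 of the 29 had an unadjusted limma p under 0.05 in the 3 comparisons, against 12.6%, 19.3% and 22.0% of all genes. Besides siRNA targets these were Arid4a, Dnmt3a, Dnmt3b, Dnmt3l, Tet1 and Tet2. Dnmt3l, below the median probe set signal, also had such a p without the block for 3XHMT against control and against Cbx3.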

How the data were processed

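Expression was measured on 8 arrays of 45101 probe sets. Per the submitters' processing notes, the authors used RMA to obtain the deposited log2 values; version and settings: not given in the sources used here. RMA equalises the distributions of the arrays (medians 5.87 to 5.90), so a shift shared by most genes is removed, and weak signals compress differences. Only 8 arrays limit the precision.

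Gene symbols came from the platform's annotation table: 34945 probe sets had 1 symbol, 932 several, 9160 none, and 64 array controls were left out. The files name no genome build. A model of 3 group means was fitted by limma 3.58.1 under R 4.3.3 over 18193 genes, with Benjamini-Hochberg adjustment over all of them. It used lmFit and eBayes, two-sided, on all 8 arrays, with 5 residual degrees of freedom. The fit was also run on simulated data with independent noise and no tiers, which cannot show how it handles the tiers. Genes called at adjusted p 0.05 in any fit with or without a block, the 5 lowest p per comparison and each cluster's brightest member were eligible for values. Ins2, Calcr, Kcnq1ot1, Slc38a4, Meg3, Rian, Mirg, Zfp57, Trim28 and Dnmt1 were added after their values were seen. The members, lists and tests were chosen with earlier results of these data known.

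The labels number the replicates. Deviations from the group means correlated by 0.57, 0.59 and 0.74 between control and Cbx3 arrays of the same number, which share a tier, and by -0.52 to 0.05 otherwise. The numbers therefore pair these groups. They do not pair 3XHMT, for which the same-number values against control were 0.11 and -0.56. Alternatives were each array left out, replicate number or tier as a block, second, mean or all probe sets, dim genes left out, cyclic loess and only the 2 groups compared. Omissions with the block, H19 and the count of genes by group order were added after seeing the data. Imprinting control regions were not analysed here.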

Additional observations from a re-analysis of the deposited data

How the results depend on the processing

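Among the members called without a block, direction was kept under every alternative listed except for Igf2 between 3XHMT and Cbx3 at its second, dim probe set, where the difference turned to 0.062 (adjusted p = 0.974). For 3XHMT against control, 1 member was called in the fit described, 3 with the tier as a block, 1 with the replicate block, and 0 with dim genes left out, with the mean or second probe set, with all probe sets tested, or with only the 2 groups compared; leaving out 1 array gave 0 in all 8 cases. All genes called were then 320 (tier), 97 (replicate block), 9 (dim left out), 14 (all probe sets tested), 24 (second probe set) and 10 (2 groups), and 3 to 22 on omissions. For Cbx3 against control, 2 members became 7 with the tier and stayed 2 with the replicate block, and became 0 with the mean, second or all probe sets or with only the 2 groups; omissions gave 0 to 1. All genes called were then 1199 (tier), 312 (replicate block), 32 (all probe sets) and 27 (2 groups), and 2 to 34 on omissions. For 3XHMT against Cbx3, 4 members became 8 with the tier, 7 with the replicate block and 2 with the second probe set, and 0 to 5 on omissions. All genes called were then 1660, 655 and 165, with 178 over all probe sets and 22 to 273 on omissions. With the mean of probe sets 0, 0 and 3 members were called in the 3 comparisons, in the same order, of 36, 71 and 233 genes. For Cbx3 against control the second probe set gave 57 genes. Cyclic loess gave 1, 2 and 5 members, of 35, 77 and 289 genes. With dim genes left out, 2 members were called for Cbx3 against control and 4 for 3XHMT against Cbx3, of 57 and 210 genes. A larger table of tests makes the adjustment stricter when all probe sets enter. The cause of the other shifts was not tested. With 2 arrays in the 3XHMT group, an omission there leaves 1 array, which is assumed to vary like the other groups.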
